A study of Condylura cristata and Mus musculus with 12 samples.

Results

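The genes described here encode the SNAREs and their partners, the synaptotagmins, the integral vesicle proteins and the exocyst. They act at synaptic vesicles and, in part, on endosomal and other membrane routes. They were chosen by symbol alone, as every row of the count tables named as a syntaxin (Stx), syntaxin-binding protein (Stxbp), VAMP, SNAP, synaptotagmin (Syt), SV2, synaptophysin or synaptogyrin (Syp, Synpr, Syngr), complexin (Cplx), Unc13, Rims, Rab3, Rab27, Cadps, Nsf, alpha-, beta- or gamma-SNAP (Napa, Napb, Napg), Scamp or exocyst subunit (Exoc). The rule found 98 of the 33773 genes in the mole table and 97 of the 26125 genes in the mouse table, and 97 were in both, Stx10 being in the mole table alone. A total of 94 members passed the filter on low counts in the mole and 95 in the mouse. The members that did not pass were Stx10, Syngr4, Syt8 and Syt10 in the mole and Stx19 and Syt8 in the mouse.

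RNA was sequenced from the trigeminal ganglia (TG), which hold the sensory neurons of the face and of the star of the star-nosed mole, and from the dorsal root ganglia (DRG), which hold those of the body. The moles were wild adult males, with 3 libraries per ganglion, and the mice were adult C57BL/6 females, with 2 libraries per ganglion, so that species and sex cannot be told apart. By the study's methods each library came from 1 animal except that 1 mole DRG library, which the labels do not identify, was combined from 2 moles. Mole libraries held 8409670 to 11140894 counts, apart from DRG 3 with 92323879, and mouse libraries 90548941 to 147076817. The Genomic Sample Prep kit was used for mole TG 1 and DRG 1, and the TruSeq kit for the others. Mole TG 1 had a rank correlation of 0.898 and 0.893 with TG 2 and TG 3, against 0.954 between those, and 0.922 with DRG 1. Mole DRG 2 had a rank correlation of 0.920 and 0.912 with DRG 1 and DRG 3, against 0.951 between those. The marker genes of nociceptors and of myelinating Schwann cells ran in opposite directions between the ganglia of the 2 species, and the mouse libraries are therefore called by their labels throughout. Whether the labels of the mouse ganglia were exchanged was not tested. An exchange would turn the sign of every mouse difference given here and change every value of the comparison between the species.

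Transmitter and peptide release depends on a bundle of SNARE proteins that joins a vesicle to the plasma membrane: a VAMP on the vesicle, and a syntaxin with SNAP-25 on the target. SM proteins and the Unc13 proteins guide the assembly of the bundle, complexins and synaptotagmins couple fusion to calcium, and Nsf with its SNAP adaptors takes the bundle apart for reuse. Sensory neurons use this machinery at their central synapses and also release neuropeptides from their endings in the skin, where Cadps and several synaptotagmins are known for dense core vesicle release.

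In the mole, these genes were more often higher in the DRG than in the TG. Of the 94 members tested, 36 (38.3%) were higher in the DRG at a Benjamini-Hochberg adjusted p under 0.05 in edgeR's quasi-likelihood test, where 12.9% of all 18078 genes tested were. Only 7 members (7.45%) were higher in the TG, against 10.5% of all genes, and the other 51 did not pass. The median log2 fold change of TG over DRG was -0.55 over the members and 0.11 over all genes, and 65 members had a negative value. Every DRG library lay above every TG library for 42 members (44.7%, against 22.4% of all genes), and the reverse held for 13 (13.8%, against 21.7%). Summed over all members, the level was 8547, 7516 and 7844 CPM (counts scaled to an equal library total of 1000000) in TG 1, 2 and 3 and 14591, 9786 and 14124 CPM in DRG 1, 2 and 3. In these bulk samples, fewer cells of a type and less RNA per cell cannot be told apart.

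The count depended on single libraries. Without TG 2, TG 3, DRG 1 or DRG 3 it fell to 6, 9, 8 and 8 members higher in the DRG (6.32%, 9.57%, 8.33% and 8.33% of those tested), where 1.07%, 2.44%, 1.99% and 2.3% of all genes were. Without TG 1 or DRG 2 it was 41 and 39 (42.7% and 41.1%, against 18.8% and 18.2% of all genes). Without both TG 1 and DRG 2 it was 50 higher in the DRG (52.6%, against 29.9%) and 11 higher in the TG (11.6%, against 33.3%). Among the 4 TruSeq libraries alone it was 31 (32.3%, against 10.2%) and 5 (5.21%, against 4.76%). The members called in every fit with a library left out were Synpr, Napb, Syt9, Syt6, Syt15 and Exoc1 in the DRG direction and Syt3 in the TG direction. The GC content of the mouse transcripts differed with the call: its median was 47.9% for the 34 members with a value that were higher in the DRG, 57.9% for the 7 higher in the TG and 52.1% for the 51 that did not pass. With an offset for GC content, 25 of the 36 DRG calls and 2 of the 7 TG calls passed, and none of the called members changed sign. The 25 include Stxbp3a and Vamp7, which had no GC value, so that the offset left their log2 fold changes as they were (-1.72 and -1.89). In all, 27.7% of the members were higher in the DRG with this offset, against 7.15% of all genes, and 2.13% in the TG, against 4.56%. The DRG share includes Syt5, which was not called without the offset and moved from 0.02 to -1.13 (adjusted p = 0.0352). The calls that this offset ended are named beside their values.

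**Figure D1:**
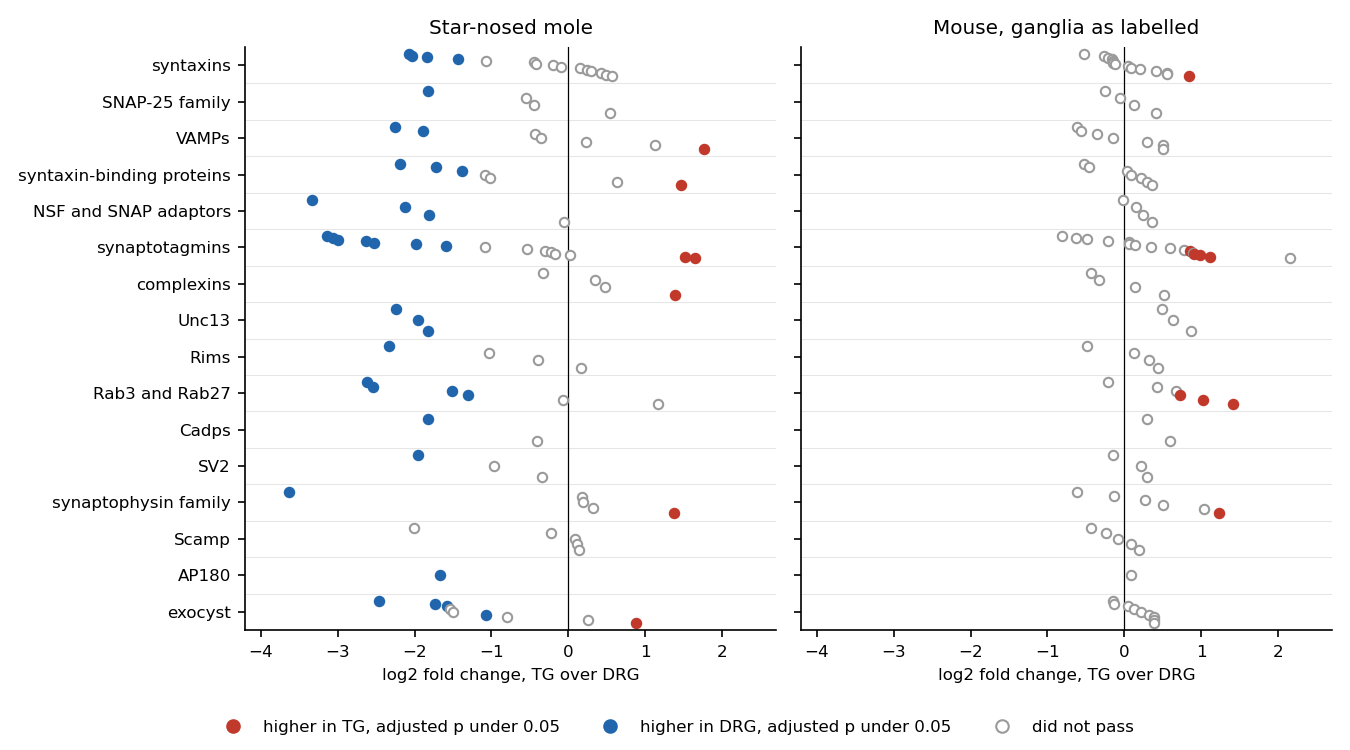
Log2 fold change of TG over DRG (x axis) for each member tested, by subfamily (y axis), in the mole (left) and in the mouse by its labels (right). Filled points passed an adjusted p of 0.05: 36 blue and 7 red points in the mole, and 9 red points in the mouse.

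Among the SNAREs of the plasma membrane, Snap25 stood at 401, 494 and 549 CPM in mole TG 1, 2 and 3 and at 1960, 1170 and 1958 CPM in DRG 1, 2 and 3. The groups did not overlap, and the fitted difference was 3.52-fold (log2 fold change -1.82, SE 0.30, adjusted p = 0.0109). The GC offset moved it to -0.84 (adjusted p = 0.14), and without TG 2 its adjusted p was 0.0584. Snap23, Snap29 and Snap47, SNAP-25 relatives that act in many cell types, did not pass, with log2 fold changes from -0.55 to 0.54. Stx1a, a neuronal syntaxin of the plasma membrane, stood at 24.2, 23.2 and 24.7 CPM in the TG and 84.0, 49.1 and 60.9 CPM in the DRG (log2 fold change -1.43, SE 0.29, adjusted p = 0.0164). The groups did not overlap.

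Of the 15 syntaxins tested, 4 were higher in the mole DRG and none in the TG. Besides Stx1a these were Stx2, Stx7 and Stx12, of which Stx7 and Stx12 are endosomal syntaxins. Stx2 stood at 10.2, 8.47 and 10.1 CPM in the TG and 46.5, 24.1 and 49.9 CPM in the DRG (log2 fold change -2.07, SE 0.36, adjusted p = 0.0121). Stx7 had a log2 fold change of -2.03 (adjusted p = 0.0131). Stx12 had -1.84 (adjusted p = 0.018), which the GC offset moved to -0.86 (adjusted p = 0.147). Stx4a, a plasma membrane syntaxin found in many cell types and the syntaxin with the highest level per kilobase of mouse transcript in the mole, stood at 59.3, 57.0 and 60.7 CPM in the TG and 51.2, 43.8 and 31.0 CPM in the DRG and did not pass (0.49, SE 0.27), although its groups did not overlap. A further 9 syntaxins did not pass and had values from -1.07 to 0.57.

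The vesicle SNAREs divided. Vamp1 and Vamp2 are the forms used for synaptic vesicle fusion, and neither passed. Vamp2 stood at 708, 457 and 435 CPM in the TG and 853, 622 and 694 CPM in the DRG (log2 fold change -0.44, SE 0.28). Vamp1 stood at 357, 224 and 225 CPM in the TG and 316, 161 and 211 CPM in the DRG (0.23, SE 0.33). For both genes the groups overlapped. Vamp4 and Vamp7, which act on endosomal and lysosomal routes, were higher in the DRG, at log2 fold changes of -2.26 (adjusted p = 0.0229) and -1.89 (adjusted p = 0.0309), and the call of Vamp4 ended with the GC offset (-1.26, adjusted p = 0.0665). Vamp8, an endosomal and secretory granule VAMP widely used outside neurons, was higher in the TG, at 48.7, 37.4 and 30.1 CPM against 12.7, 10.9 and 10.6 CPM (log2 fold change 1.76, SE 0.31, adjusted p = 0.0119). It was among the 2 TG calls that also passed with the GC offset (1.47, adjusted p = 0.0316).

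**Figure D2:**
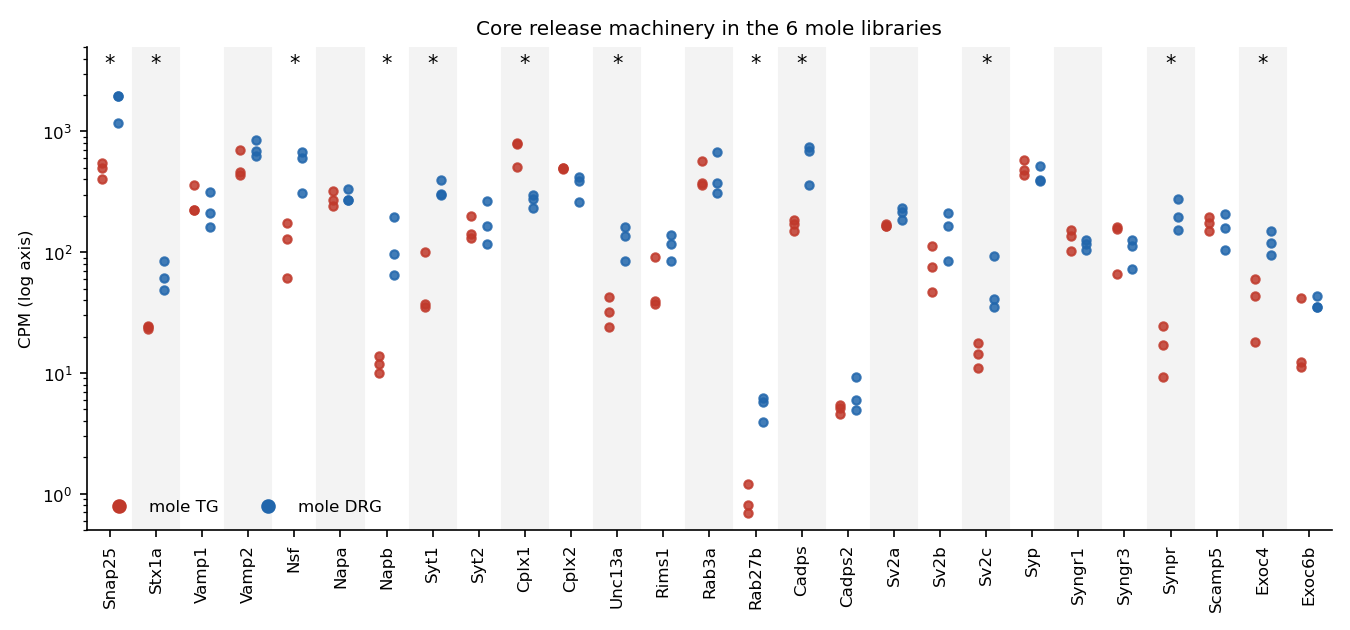
CPM (y axis, log scale) of 27 genes of the core release machinery in each of the 3 mole TG (red) and 3 mole DRG (blue) libraries. A star marks an adjusted p under 0.05: 11 genes were higher in the DRG and Cplx1 in the TG, while Vamp1, Vamp2, Rab3a and Syp did not pass.

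Among the syntaxin-binding proteins, Stxbp5 (tomosyn), an inhibitor of SNARE assembly, and Stxbp3a were higher in the mole DRG, at -2.19 (adjusted p = 0.0141) and -1.72 (adjusted p = 0.0217). Stxbp2, an SM protein of secretory cells outside the nervous system, was higher in the TG, at 57.3, 71.0 and 69.1 CPM against 18.3, 34.9 and 18.8 CPM (log2 fold change 1.46, SE 0.33, adjusted p = 0.0227). The GC offset moved it to 0.93 (adjusted p = 0.0672). Stxbp4, Stxbp5l and Stxbp6 did not pass.

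Nsf, the ATPase that separates used SNARE bundles, stood at 61.1, 129 and 173 CPM in the TG and 673, 308 and 606 CPM in the DRG (log2 fold change -2.13, SE 0.46, adjusted p = 0.0192; GC offset -1.57, adjusted p = 0.0645). Its adaptors split by paralog. Napb (beta-SNAP, the form known from brain) stood at 13.9, 9.96 and 11.8 CPM in the TG and 97.0, 65.0 and 195 CPM in the DRG. The lowest DRG library was above the highest TG library, and the fitted difference was 10.1-fold (log2 fold change -3.33, SE 0.45, adjusted p = 0.00814). Napa (alpha-SNAP, present in all tissues) did not pass, at 324, 241 and 270 CPM in the TG and 270, 333 and 268 CPM in the DRG. Napg (gamma-SNAP) had a log2 fold change of -1.81 (adjusted p = 0.0318), a call that the GC offset ended (-1.23, adjusted p = 0.0753).

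Synaptotagmins, the largest subfamily, gave the most calls, with 7 of 15 tested higher in the mole DRG (Syt1, Syt4, Syt6, Syt7, Syt9, Syt11 and Syt15) and 2 higher in the TG (Syt3 and Syt12). Syt1 and Syt2 are fast calcium sensors for synaptic release. Syt1 stood at 101, 36.9 and 35.0 CPM in the TG and 297, 303 and 394 CPM in the DRG (log2 fold change -2.53, SE 0.46, adjusted p = 0.013), while Syt2 stood at 199, 141 and 132 CPM and 267, 116 and 166 CPM and did not pass (-0.22, SE 0.35). Syt9, which can also serve as a fast sensor, stood at 11.3, 5.21 and 6.27 CPM in the TG and 88.2, 40.8 and 70.5 CPM in the DRG (log2 fold change -3.14, SE 0.44, adjusted p = 0.00824).

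Syt7, a slow, high-affinity calcium sensor, stood at 97.5, 36.7 and 51.0 CPM in the TG and 305, 184 and 239 CPM in the DRG (log2 fold change -1.98, SE 0.41, adjusted p = 0.0173). Syt6 stood at 10.6, 6.51 and 7.40 CPM in the TG and 72.1, 52.7 and 70.8 CPM in the DRG (log2 fold change -3.0, SE 0.32, adjusted p = 0.00756). Syt4, which does not bind calcium as Syt1 does and is found on dense core vesicles, stood at 143, 37.0 and 28.9 CPM in the TG and 477, 448 and 811 CPM in the DRG (log2 fold change -3.06, SE 0.65, adjusted p = 0.0184). For all of these genes the lowest DRG library lay above the highest TG library, and for Syt1, Syt4, Syt6, Syt7 and Syt9 the highest TG library was TG 1. Syt15 had a log2 fold change of -2.63 (SE 0.32, adjusted p = 0.0077), with 4.57, 4.75 and 3.74 CPM in the TG and 29.9, 27.2 and 23.7 CPM in the DRG. Syt11, with the highest level per kilobase among synaptotagmins, had -1.59 (SE 0.32, adjusted p = 0.0159).

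Syt3 went the other way. It stood at 166, 159 and 152 CPM in the mole TG and at 49.9, 51.3 and 52.0 CPM in the DRG, with no overlap (log2 fold change 1.64, SE 0.22, adjusted p = 0.00814). It was called in all 6 fits with a library left out, at an adjusted p of up to 0.0484. Its mouse transcript has a GC content of 60.5%, above that of any other called member with a value, and with the GC offset its log2 fold change was 0.55 (adjusted p = 0.208). Syt12 stood at 28.1, 60.8 and 52.8 CPM in the TG and 21.1, 19.8 and 9.22 CPM in the DRG (log2 fold change 1.51, SE 0.44, adjusted p = 0.0431; GC offset 0.64, adjusted p = 0.266). Syt8 and Syt10 had too few counts to be tested, and the other 5 synaptotagmins tested had log2 fold changes from -1.08 to 0.02.

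Complexins clamp and promote fusion by binding the SNARE bundle. Cplx1 stood at 505, 799 and 787 CPM in the mole TG and 276, 295 and 233 CPM in the DRG, with no overlap and a fitted difference of 2.60-fold (log2 fold change 1.38, SE 0.27, adjusted p = 0.0156). It was called in 2 of the 6 fits with a library left out, and the GC offset moved it to 0.49 (adjusted p = 0.185). Cplx2 stood at 493, 499 and 501 CPM in the TG and 419, 261 and 388 CPM in the DRG (log2 fold change 0.48, SE 0.26) and did not pass although its groups did not overlap. Cplx3 and Cplx4 were at or below 4.30 CPM in every mole library.

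All 3 Unc13 genes (Munc13), priming factors that open syntaxin for assembly, were higher in the mole DRG. Unc13a stood at 42.2, 24.2 and 32.2 CPM in the TG and 161, 84.3 and 135 CPM in the DRG (log2 fold change -1.95, SE 0.35, adjusted p = 0.0125). Unc13b had -1.82 (SE 0.32, adjusted p = 0.0123) and Unc13c had -2.24 (adjusted p = 0.0321), the latter losing its call with the GC offset (-1.48, adjusted p = 0.0756). Of the Rims genes, active zone scaffolds that bind Rab3, Rims2 passed (-2.33, SE 0.43, adjusted p = 0.0134), while Rims1, Rims3 and Rims4 did not. Rims1 stood at 90.9, 39.5 and 37.1 CPM in the TG and 118, 84.9 and 139 CPM in the DRG, and TG 1 lay above DRG 2. Cadps, a priming factor for dense core vesicles, stood at 184, 150 and 172 CPM in the TG and 739, 358 and 688 CPM in the DRG (log2 fold change -1.82, SE 0.33, adjusted p = 0.0126). Cadps2 was at or below 9.27 CPM in every mole library and did not pass.

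Rab3 and Rab27 are small GTPases of secretory vesicles. Rab3a, the main form at synapses, did not pass, at 570, 372 and 361 CPM in the TG and 681, 309 and 374 CPM in the DRG (log2 fold change -0.07, SE 0.36). Rab3c and Rab3d were higher in the DRG. Rab3c stood at 10.9, 21.6 and 22.9 CPM in the TG and 34.4, 51.3 and 51.8 CPM in the DRG (-1.31, SE 0.37, adjusted p = 0.0398; GC offset -0.23, adjusted p = 0.753). Rab3d stood at 15.9, 43.8 and 40.7 CPM in the TG and 120, 68.0 and 97.2 CPM in the DRG (-1.51, SE 0.43, adjusted p = 0.0408). Rab27a and Rab27b, which act on secretory granules, had log2 fold changes of -2.62 (adjusted p = 0.0134) and -2.54 (adjusted p = 0.0168). Rab27b was low in the mole, at 0.807, 1.21 and 0.696 CPM in the TG and 3.89, 5.76 and 6.25 CPM in the DRG, and the GC offset moved it to -1.45 (adjusted p = 0.105).

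Of the integral proteins of the vesicle membrane, Synpr and Sv2c were higher in the mole DRG and Syngr2 in the TG. Synpr (synaptoporin), a relative of synaptophysin, had the largest difference of all members tested in the mole. It stood at 24.3, 9.30 and 16.9 CPM in the TG and 196, 154 and 276 CPM in the DRG, and the fitted difference was 12.4-fold (log2 fold change -3.63, SE 0.43, adjusted p = 0.00756). Syp (synaptophysin), the standard marker of synaptic vesicles, stood at 577, 475 and 438 CPM and 518, 389 and 398 CPM and did not pass (0.19, SE 0.25). Syngr1 and Syngr3, synaptogyrins of neurons, did not pass either, with log2 fold changes of 0.18 and 0.32. Syngr2, the synaptogyrin of cells outside the nervous system, was higher in the TG, at 55.4, 91.0 and 93.4 CPM against 20.5, 43.3 and 29.2 CPM (1.37, SE 0.37, adjusted p = 0.0344; GC offset 0.53, adjusted p = 0.24).

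Sv2c, a form of the vesicle glycoprotein SV2, stood at 14.4, 11 and 17.8 CPM in the mole TG and 35.2, 92.3 and 41.0 CPM in the DRG (log2 fold change -1.96, SE 0.44, adjusted p = 0.0211). Its highest library was DRG 2, which stood apart from the other DRG libraries as a whole. Sv2a, at 165, 170 and 166 CPM in the TG and 232, 186 and 216 CPM in the DRG, did not overlap and did not pass (-0.34, SE 0.22), and Sv2b did not pass at -0.97 (SE 0.43). None of the 5 Scamp genes, membrane carriers of the recycling and secretory routes, passed, and Scamp5, the form of the nervous system, and Scamp3, the highest of them per kilobase, had log2 fold changes of 0.14 and 0.11. Snap91, which encodes the clathrin adaptor AP180 and matches the rule by its symbol only, stood at 133, 103 and 102 CPM in the TG and 368, 257 and 448 CPM in the DRG (-1.67, SE 0.29, adjusted p = 0.0118).

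The exocyst tethers secretory vesicles to the plasma membrane and acts in membrane addition and receptor delivery rather than in fast release. Of 9 subunit genes tested, 4 were higher in the mole DRG (Exoc1, Exoc2, Exoc4 and Exoc6) and Exoc3 was higher in the TG. Exoc1 stood at 19.9, 16.3 and 17.7 CPM in the TG and 84.1, 78.4 and 133 CPM in the DRG, a fitted difference of 5.49-fold (log2 fold change -2.46, SE 0.31, adjusted p = 0.0077). Exoc4 stood at 18.0, 43.5 and 60.1 CPM in the TG and 149, 95.7 and 120 CPM in the DRG (-1.58, SE 0.44, adjusted p = 0.0388). The GC offset ended the calls of Exoc2 (-0.09, adjusted p = 0.883), Exoc4 (-0.58, adjusted p = 0.485) and Exoc6 (-0.69, adjusted p = 0.239), and not that of Exoc1. Exoc3, which had the highest level per kilobase of the subunits, stood at 313, 332 and 303 CPM in the TG and 168, 168 and 180 CPM in the DRG (0.88, SE 0.21, adjusted p = 0.0263), and the GC offset raised this to 1.40 (adjusted p = 0.0154). This call was lost with DESeq2 (adjusted p = 0.0849), with no filter (0.139), with the replicate block (0.0551), among the TruSeq libraries alone (0.0706), and without TG 2, TG 3, DRG 1 or DRG 3 (0.0974 to 0.138).

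Several of these results set a gene apart from its closest paralog, so the stretches that each pair shares were examined, since reads from a shared stretch could be assigned to either gene. A coding sequence of the mouse (GENCODE M21, GRCm38) was matched by symbol for 95 of the 98 members, all but Stx10, Stxbp3a and Vamp7. Among these, no pair of a subfamily, of 378 pairs, shared a run of 36 bases, and the longest run shared was 33 bases, between Rab3b and Rab3d. Allowing 2 mismatches in a window of 36 bases, 5.72% of the windows of Cplx1 matched Cplx2, 1.28% of those of Napb matched Napa, and none of Syt1 matched Syt2. The mole sequences were not examined, nor were human and dog transcripts or the parts of transcripts outside the coding sequence. Mole reads were aligned to human transcripts first, so whether mole reads went to the wrong paralog was not tested. The 60 coding bases around the longest shared run of each pair are given here 5′ to 3′, with the bases at which the 2 paralogs differ in capitals. Napb and Napa (chr2:148709420-148712720, minus strand, and chr7:16107587-16109064, plus strand) share 26 bases in a row:
Napb: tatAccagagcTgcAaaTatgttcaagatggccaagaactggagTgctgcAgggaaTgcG
Napa: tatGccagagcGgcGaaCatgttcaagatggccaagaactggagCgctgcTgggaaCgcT
Syt1 and Syt2 (chr10:108504529-108583931, minus strand, and chr1:134745790-134746755, plus strand) share 26:
Syt1: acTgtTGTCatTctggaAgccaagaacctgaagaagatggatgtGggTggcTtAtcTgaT
Syt2: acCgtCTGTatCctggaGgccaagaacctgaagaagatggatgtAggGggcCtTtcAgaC
Cplx1 and Cplx2 (chr5:108525527-108548524, minus strand, and chr13:54378681-54378852, plus strand) share 32:
Cplx1: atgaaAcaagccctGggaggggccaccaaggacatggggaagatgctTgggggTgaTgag
Cplx2: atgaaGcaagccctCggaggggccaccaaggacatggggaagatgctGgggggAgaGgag
Each stretch is coding sequence of 2 or more exons, so its genomic span includes an intron, and the 60 bases differ at 8, 13 and 5 positions in the 3 pairs in this order.

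The balance within such pairs is given as the share of the pair's counts that fell to the first gene, a description of pairs chosen after their values were seen. Syt1 took 25.1% ± 7.32 (SD, n = 3) of the Syt1 and Syt2 counts in the mole TG and 65.1% ± 10.8 in the mole DRG. In the mouse it took 62.0% ± 0.371 (SD, n = 2) in the TG and 45.3% ± 0.821 in the DRG by label. Napb took 4.08% ± 0.101 of the Napa and Napb counts in the mole TG, 28.3% ± 13.0 in the mole DRG, and 64.1% ± 2.61 and 58.0% ± 8.91 in the mouse. For Syt1 and Napb, the 3 mole TG shares lay below all 3 mole DRG shares. Vamp1 took 33.5% ± 0.568 and 23.6% ± 3.24 of the Vamp1 and Vamp2 counts in the mole TG and DRG, and 55.0% ± 1.48 and 71.9% ± 1.24 in the mouse. Cplx1 took 57.8% ± 6.19 and 43.4% ± 8.40 of the Cplx1 and Cplx2 counts in the mole, with overlap, and 77.0% ± 4.05 and 85.6% ± 1.70 in the mouse.

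**Figure D3:**
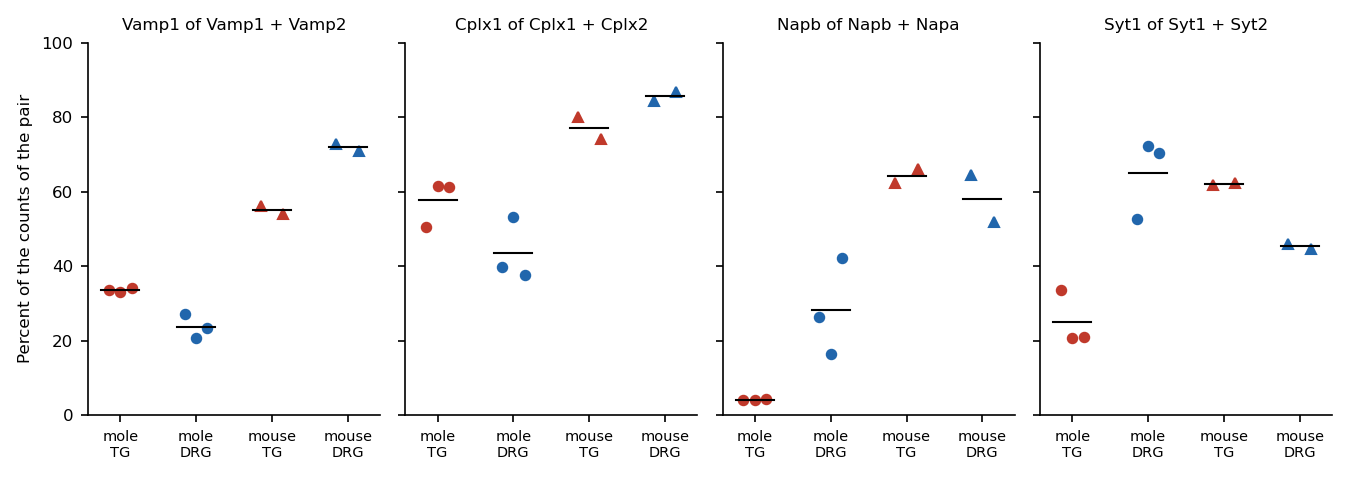
Percent of the counts of a pair of paralogs that fell to the first gene (y axis) in each mole (circles) and mouse (triangles) library, with group means as bars, TG in red and DRG in blue. The Napb and Syt1 shares were lower in the mole TG (means 4.08% and 25.1%) than in the other 3 groups.

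In the mouse, 9 of 95 members tested (9.47%) were higher in the libraries labelled TG, against 1.12% of all 21394 genes, and 0 were higher in those labelled DRG, against 1.21% of all genes. At an unadjusted p under 0.05, 25 members pointed to the TG by label and 6 to the DRG, against 7.31% and 8.85% of all genes, and DESeq2 called 15 and 4, against 3.34% and 4.61% of all genes. The median log2 fold change was 0.19 over the members and -0.02 over all genes. Both libraries labelled TG lay above both labelled DRG for 50 members (52.6%, against 24.2% of all genes), and the reverse held for 14 (14.7%, against 23.9%). Without mouse TG 1 or TG 2 no member passed, and without DRG 1 or DRG 2 the counts were 38 and 20 in the TG direction (40% and 21.1% of the members, against 9.38% and 4.81% of all genes) and 9 and 8 in the DRG direction (9.47% and 8.42%, against 12.8% and 5.57%). Without TG 1 or TG 2, 0.118% of all genes passed in the TG direction in either fit.

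The 9 members were Synpr, Syt4, Syt6, Syt7, Syt9, Rab3c, Rab3d, Rab27b and Stx2, and all of them were among the 36 higher in the mole DRG. Synpr stood at 293 and 308 CPM in mouse libraries labelled TG and 130 and 126 CPM in those labelled DRG (log2 fold change 1.23, SE 0.12, adjusted p = 0.0137). Rab27b stood at 118 and 136 CPM against 54.8 and 41.1 CPM (1.41, SE 0.18, adjusted p = 0.0227). Syt9 stood at 140 and 151 CPM against 65.5 and 68.0 CPM (1.12, SE 0.13, adjusted p = 0.0181). In each case the direction by label was the reverse of that in the mole.

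Syt7 stood at 564 and 535 CPM against 286 and 269 CPM (0.99, SE 0.12, adjusted p = 0.02), and Syt6 at 140 and 145 CPM against 83.6 and 73.5 CPM (0.86, SE 0.13, adjusted p = 0.0347). Syt4 stood at 383 and 429 CPM against 233 and 198 CPM (0.91, SE 0.14, adjusted p = 0.0339). Rab3c, Rab3d and Stx2 had log2 fold changes of 1.02, 0.73 and 0.84 (adjusted p = 0.0473, 0.0399 and 0.0339). Of the SNAREs that carry fast release, Snap25 stood at 1278 and 1189 CPM against 1213 and 1355 CPM and did not pass (-0.06, SE 0.13). Vamp1 stood at 705 and 668 CPM against 955 and 1065 CPM and did not pass either (-0.56, SE 0.13, adjusted p = 0.0914), as did Vamp2 at 552 and 569 CPM against 358 and 435 CPM (0.50, SE 0.14, adjusted p = 0.147).

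**Figure D4:**
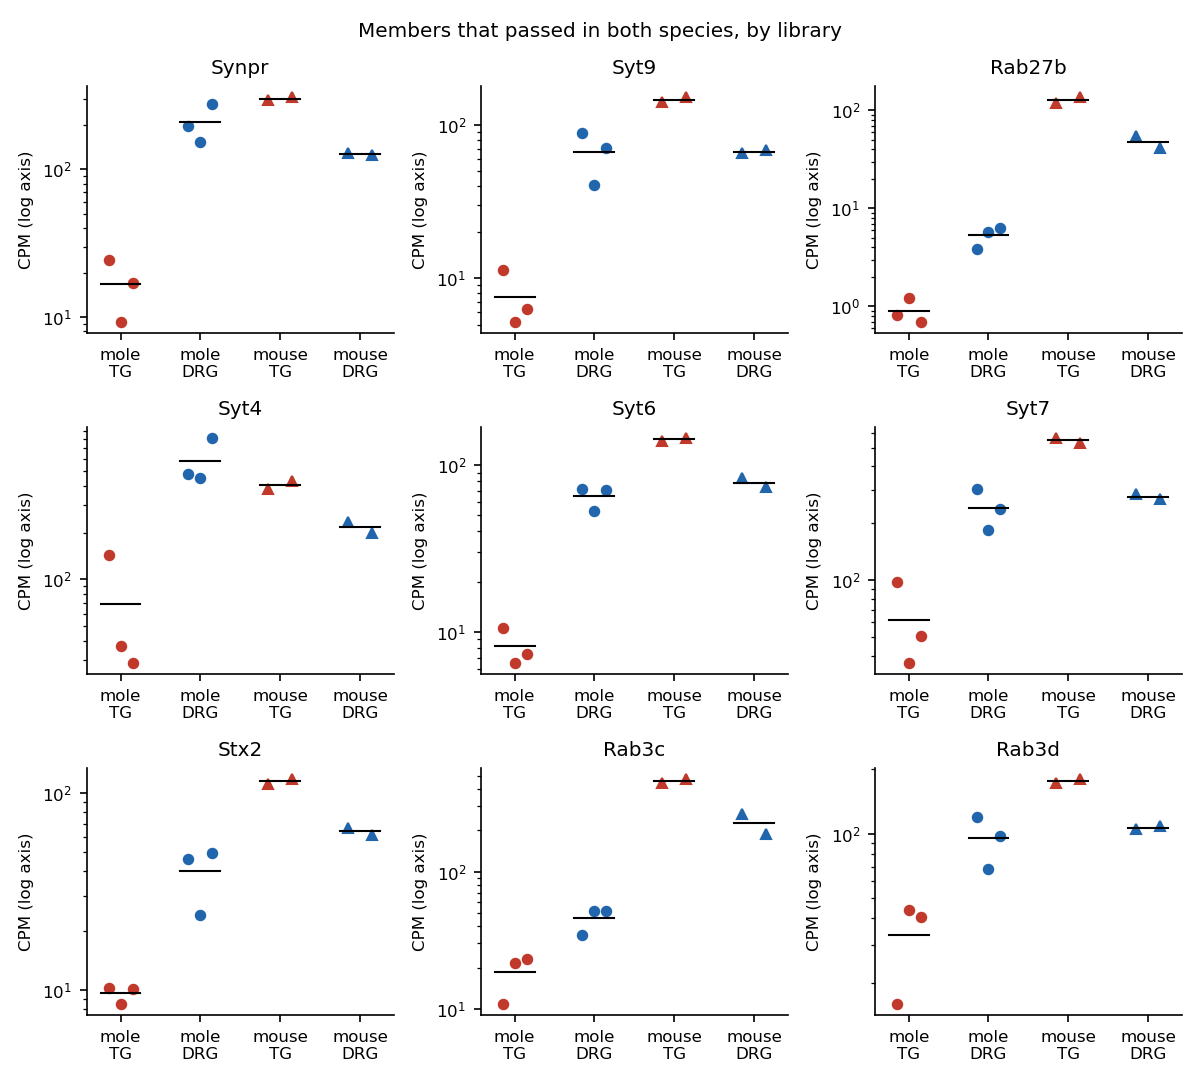
CPM (y axis, log scale, a range of its own in each panel) of the 9 members that passed in both species, by library, with means as bars, mole as circles and mouse as triangles, TG in red and DRG in blue. In each panel the mole TG libraries lie below the mole DRG libraries, and the mouse libraries labelled TG lie above those labelled DRG.

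Whether the difference between ganglia itself differed between the species was tested as an interaction in a fit of all 10 libraries over the symbols in both tables. Of 97 members tested, 39 (40.2%) were more toward the DRG in the mole than in the mouse, against 12.6% of all 21580 genes, and 3 (3.09%) were more toward the TG, against 4.39%. The interaction had a median of -0.16 over all genes with TMM factors and 0.31 with RLE factors, under which 34 and 5 members (35.1% and 5.15%) were called, against 7.86% and 7.28% of all genes. The values that follow, and their adjusted p, are those of the interaction against 0 with TMM factors. Synpr differed by -5.33 (SE 0.59, adjusted p = 0.000707), which is -5.17 relative to the median of all genes. Syt9 differed by -4.73 (SE 0.60, adjusted p = 0.00126), Rab27b by -4.43 (SE 0.48, adjusted p = 0.00067) and Syt6 by -4.32 (SE 0.45, adjusted p = 0.000429) on the log2 scale. Napb, at -4.16 (SE 0.62, adjusted p = 0.00263), Exoc1, at -3.31 (SE 0.44, adjusted p = 0.00163), and Syt15, at -3.15 (SE 0.43, adjusted p = 0.00195), were called although none passed in the mouse alone. Snap25 differed by -2.24 (SE 0.43, adjusted p = 0.00733).

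The 3 members more toward the TG in the mole were Syt3, at 1.99 (SE 0.34, adjusted p = 0.00462), Vamp8, at 1.90 (SE 0.60, adjusted p = 0.0487), and Cplx1, at 1.24 (SE 0.39, adjusted p = 0.0482). In the mouse Syt3 stood at 44.2 and 37.8 CPM in libraries labelled TG and 64 and 80.4 CPM in those labelled DRG, without passing (-0.81, SE 0.17, adjusted p = 0.0766). Vamp1, which did not pass in either species, differed by 0.32 (SE 0.49). With a library left out in turn, 16 of the 39 and Syt3 were called in all 10 fits. The interaction is a comparison by label.

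**Figure D5:**
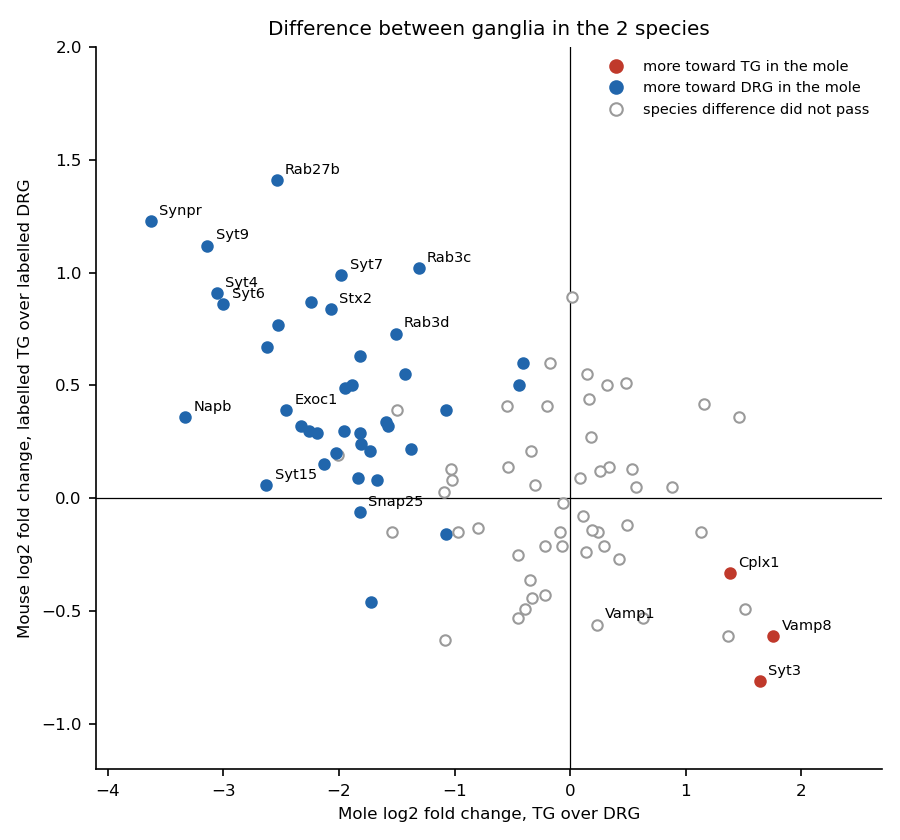
Log2 fold change of TG over DRG in the mole (x axis) and, by label, in the mouse (y axis), 1 point per member tested in both, with colour for the test of the species difference: blue more toward the DRG in the mole, red more toward the TG. Synpr, Rab27b and Syt9 lie at the upper left (mole below -2.5, mouse above 1), and Syt3, Vamp8 and Cplx1 at the lower right.

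The level of a gene relative to the others was compared per kilobase of the mouse transcript with the longest coding sequence, which stands in for the mole transcript. Levels and order depend on the transcript chosen. In the mole TG the 6 highest levels were those of Vamp2 (479 CPM per kb), Cplx1 (319), Rab3a (279), Snap25 (228), Syp (192) and Vamp1 (192). In the mole DRG Snap25 came first (802 CPM per kb), followed by Vamp2 (650) and Rab3a (292), and Cplx1 stood at 122. In the mouse libraries labelled TG the 5 highest were Snap25 (583 CPM per kb), Vamp2 (504), Vamp1 (490), Cplx1 (464) and Syt11 (364), and in those labelled DRG they were Vamp1 (721), Snap25 (607), Cplx1 (584), Vamp2 (356) and Syt11 (288). Averaged over all libraries of a species, 8 of the 10 highest members were shared, and the rank correlation across the 95 members with a length was 0.825, a value across genes, which are not independent replicates.

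Other genes of the pathway, which the rule did not take, were counted from lists. Of 13 dense core granule genes tested in the mole, 7 passed in the DRG direction (53.8%, against 12.9% of all genes) and 1 in the TG direction (7.69%, against 10.5%). In the mouse 2 passed (15.4%), toward the TG by label, against 1.12% of all genes. Scg2 (secretogranin II), a granule cargo protein, stood at 32.3, 32.9 and 36.8 CPM in the mole TG and 340, 328 and 296 CPM in the DRG (log2 fold change -3.24, SE 0.24, adjusted p = 0.00463), and in the mouse at 257 and 270 CPM against 129 and 131 CPM (1.02, SE 0.12, adjusted p = 0.0185). It and the transporters named next were chosen after their values were seen. Slc17a6 (VGLUT2), a vesicular glutamate transporter of nociceptors and other sensory neurons, stood at 45.6, 16.8 and 23.3 CPM in the mole TG and 287, 340 and 444 CPM in the DRG (-3.65, SE 0.44, adjusted p = 0.00756), and Slc17a6 and Slc17a7 were the only 2 of 6 transporters tested that passed, Slc17a7 (VGLUT1) in the TG direction (1.22, SE 0.29, adjusted p = 0.0247). Of 23 genes of vesicle recycling, 8 passed toward the DRG and 2 toward the TG (34.8% and 8.7%). Of 28 synapsin, active zone and effector genes 6 and 3 passed (21.4% and 10.7%), and of 10 other SNAREs 2 and 0 (20% and 0%). In the mouse 1 transporter (12.5%) was higher by label in the TG and 1 recycling gene (4.35%) in the DRG, against 1.12% and 1.21% of all genes. No gene of the other 2 lists passed.

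Markers of several cell types also differed between the ganglia. Of all genes tested in the mole, 12.9% passed toward the DRG and 10.5% toward the TG, and without TG 1 these shares were 18.8% and 12%. In the mouse by label, 1.21% of all genes passed toward the DRG and 1.12% toward the TG. Summed over 11 nociceptor markers, the mole TG libraries held 663 to 788 CPM and the mole DRG libraries 4576 to 5919 CPM, with 7 of 10 tested higher in the DRG. The mouse libraries labelled TG held 6045 to 6127 CPM of the same markers and those labelled DRG 3518 to 3524 CPM, with 7 of 11 higher by label in the TG. Markers shared by most sensory neurons summed to 28128 to 54449 CPM in the mole TG and 25844 to 38053 CPM in the DRG, with 2 of 15 higher in the DRG. The top of this TG range was TG 1, and TG 2 and TG 3 held 31238 and 28128 CPM. With TG 1 left out, 5 of these 15 neuron markers passed, each toward the DRG. Myelinating Schwann cell markers summed to 10658 to 12065 CPM in the mole TG and 1953 to 3809 CPM in the DRG, with 7 of 12 higher in the TG, and to 4369 to 4448 CPM and 11007 to 14346 CPM in the mouse by label, with 11 of 12 higher in the DRG. Markers of the central nervous system, which expresses most of these vesicle genes, summed to 777 to 1189 CPM in the mole TG and 237 to 360 CPM in the DRG, with 7 of 13 higher in the TG and Aqp4 in the DRG. In the mouse they summed to 223 to 238 CPM and 587 to 611 CPM by label, with 5 of 14 higher in the DRG. Of 12 muscle markers, 8 passed toward the TG in the mole and 7 toward the TG by label in the mouse. Of the other lists in the mole, 4 of 8 epithelial markers and 1 of 6 satellite glia markers were higher in the TG. The epithelial markers summed to 1318 CPM in TG 1, against 33.1 and 31.9 CPM in TG 2 and TG 3 and 10.4 to 21.4 CPM in the DRG, and 2 of 8 were higher in the TG without TG 1. In the mole DRG, 1 satellite glia marker, 1 of 6 fibroblast markers and 3 of 10 markers of large touch and proprioceptive neurons were higher. Without TG 1, 5 of these 10 touch and proprioceptive markers were higher in the DRG. Pituitary and blood markers did not pass. In the mouse by label, 1 satellite glia marker was higher in the DRG and 1 fibroblast marker in the TG, and no marker of the remaining lists passed. Among these, the pituitary markers summed to 4.34 to 4.79 CPM in the mouse libraries labelled TG. In those labelled DRG they summed to 54.7 to 221 CPM. In the mole they summed to 8.88 to 34.1 CPM in the TG and 1.8 to 7.81 CPM in the DRG. The part of these cell types in the results was not tested.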

How the data were processed

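RNA-seq read counts per gene, deposited by the authors as whole numbers without normalization, were used for 6 mole and 4 mouse libraries of 12 samples; 2 further mouse samples were not analysed here. Per the paper's methods, the authors aligned reads with Stampy 1.0.11 (substitution rate 0.03), mole reads first to human transcripts, those left to dog and the rest to mouse transcripts, and summed the counts of a mole gene over its HomoloGene (build 64) homologs. Reads of the mouse were aligned to its own mRNA sequences. The authors also deposited lists of gene symbols from their own comparisons, which were not used. Mole counts therefore depend on how close each gene is to its homologs, and whether counting used strand was not given in the sources used here. Whether TG and DRG libraries of a number came from the same animal was not given there either.

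The quasi-likelihood test of edgeR 4.0.16 (R 4.3.3) was run on all genes of each species, TG over DRG, after TMM scaling and filterByExpr with a minimum count of 10. P-values were adjusted by Benjamini-Hochberg, and genes under 0.05 were called. The interaction was fitted over all 10 libraries and the symbols in both tables (24049). CPM are counts scaled with TMM factors to a total of 1000000. The SE is the size of the log2 fold change divided by the square root of F. GC content is the mean over a gene's mouse transcripts and length is that of its protein-coding transcript with the longest coding sequence (GENCODE M21, GRCm38), and the GC offset is a loess of log2 CPM on GC (span 0.3). The tests were checked on simulated data.

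The members and lists were chosen with earlier results of these data known. Genes were named if they passed in either species (up to 10 per direction by adjusted p) or in both, were among the 6 smallest adjusted p of the interaction, belonged to a list of 29 core release genes, or had the highest level per kilobase of a subfamily. Results of 2 of these core genes are not reported here. Other called members are named beside their subfamily's count. Alternatives were DESeq2 1.42.0, RLE factors, no filter, 10 counts in every library, a replicate block, the GC offset alone and with the block, thinned counts, the TruSeq libraries alone, an adjusted p under 0.01, each library left out in turn, and mole TG 1 and DRG 2 left out. The interaction was not fitted with the GC offset, with thinned counts or on the TruSeq libraries alone.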

Additional observations from a re-analysis of the deposited data

Results flagged for a closer look

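The difference between ganglia differed between mole and mouse, by the interaction in edgeR, for 39 members toward the DRG and 3 toward the TG. On the log2 scale, mole minus mouse, with the median of all genes at -0.16, the values were -5.33 for Synpr, -4.73 for Syt9, -4.43 for Rab27b, -4.42 for Syt4, -4.32 for Syt6, -3.42 for Syt7, -3.39 for Stx2, -3.31 for Exoc1, -3.15 for Syt15, -2.80 for Rab3c and -2.72 for Rab3d. Toward the TG they were 1.99 for Syt3, 1.90 for Vamp8 and 1.24 for Cplx1. With no filter the calls of Vamp8 and Cplx1 were lost (adjusted p = 0.0547 and 0.0604), as they were with the replicate block (0.0866 and 0.0865). Syt3 kept its call in both. The interaction was not fitted with the GC offset. In the mole alone that offset ended the calls of Rab27b, Rab3c, Syt3 and Cplx1, and not those of the other genes named in this paragraph. The mouse libraries enter by their labels. The interaction had a median of -4.52 over the nociceptor markers and of 3.33 over the myelinating Schwann cell markers, whose sums are given above. The part of these cell types, of sex and of the different alignment of the 2 species was not tested.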

How the results depend on the processing

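In the mole, 36 members were called toward the DRG and 7 toward the TG. With a library left out in turn the counts ran from 6 to 41 and from 1 to 7, with an adjusted p under 0.01 they were 6 and 1, and with the GC offset 26 and 2. The share of all genes at an adjusted p under 0.01 was not computed for any comparison, so counts of members at that threshold cannot be set against it. Without TG 1 and DRG 2 they were 50 and 11. Toward the TG, 1.04% to 7.37% of the members were called with a library left out, against 1.05% to 18.5% of all genes. The deviations of same-numbered mole samples had correlations of 0.372, 0.490 and -0.169 (numbers 1, 2 and 3), so that the last pair missed the 0.1 asked of every pair, and TG 3 correlated best with DRG 2. The numbers were therefore not taken as pairs. With the replicate block 35 and 5 mole members were called (37.2% and 5.32%, against 11% and 9.01% of all genes). With the GC offset and the replicate block they were 22 and 2 (23.4% and 2.13%, against 6.08% and 4.08%). In the mouse, against 9 in the TG direction and 0 in the DRG direction by label, DESeq2 called 15 and 4, a fit with no filter 11 and 1, an adjusted p under 0.01 gave 0 and 0, and leaving out a library gave 0 to 38 and 0 to 9 (without DRG 2, 20 and 8). The mouse replicate block gave 8 and 0 (8.42% and 0%, against 1.13% and 1.47% of all genes). The crossed pairing, chosen after seeing the data, gave 21 and 4 (22.1% and 4.21%, against 4.51% and 6.16%). With no filter, 11.3% and 1.03% of the mouse members were called, against 1.53% and 1.7% of all genes.

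In the interaction, 39 members were called toward the DRG and 3 toward the TG. The TG count was 7 with DESeq2 and without mole TG 1 and DRG 2, 5 with RLE factors and with 10 counts in every library, 1 with no filter, with the replicate block and at an adjusted p under 0.01, and 1 to 4 with a library left out. The DRG count was 24 at an adjusted p under 0.01 and 16 to 48 with a library left out (25 without mouse TG 2, 16 without mouse DRG 2). The shares of all genes toward the TG were 14.3% with DESeq2, 17.9% without mole TG 1 and DRG 2, 7.28% with RLE factors and 11.6% with 10 counts in every library. They were 3.62% with no filter, 3.26% with the replicate block and 2.5% to 10.3% with a mole library left out. Toward the DRG, 32.3% to 49.5% of the members were called with a mole library left out, against 7.41% to 20.9% of all genes. A fit without a mouse library leaves 1 library in a mouse group. The interaction counts from those fits are therefore not set against a share of all genes here. The cause of the changes in these counts was not tested.

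Over 2203 alternative values of named genes, 1824 kept their side of the threshold and sign, 209 lost and 90 gained a call, and 0 called values changed sign. A further 45 values, not called in either fit, changed sign by up to 1 SE (27 of them with a library left out), and 35 by more than 1 SE, which are given here. They changed in the mole with the GC offset, alone and with the replicate block, to 0.34 and 0.39 for Cadps2, -0.57 and -0.52 for Scamp5, -0.63 and -0.67 for Scamp3, -0.61 and -0.64 for Syngr1, -0.36 and -0.40 for Syngr3, and -0.27 and -0.28 for Syp. In the mouse both offsets gave 0.12 for Scamp3. With a library left out, they were 0.30 for Rab3a in the mole (without DRG 1), and in the mouse, without DRG 2, 0.18 for Napa, 0.16 for Rab3a, -0.13 for Rims1, 0.12 for Syp, 0.13 for Scamp3 and 0.34 for Vamp8, without DRG 1, 0.09 for Syt2, and, without TG 2, 0.09 for Stx4a. Without mole TG 1 and DRG 2, Scamp5 was -0.20 and Vamp1 -0.26, and in the interaction Vamp1 was -0.19. In the interaction with DESeq2, RLE factors and 10 counts in every library, Scamp5 was 0.39, 0.39 and 0.35, Scamp3 0.19, 0.19 and 0.13, and Syp 0.34, 0.34 and 0.29.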
